A study of Mus musculus with 28 samples.

Results

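Non-tumor liver of chow-fed mice that lacked the interleukin-17 receptor A chain in hepatocytes was compared with non-tumor liver of chow-fed mice that kept it. The comparison took in 6 of the 28 libraries of the series, chosen by genotype, diet and tissue in the sample labels: 3 dHEP libraries (dHEP-155, dHEP-164 and dHEP-165, named by animal) and 3 FF libraries (FF-157, FF-158 and FF-159). All mice were C57BL/6, carried floxed Il17ra alleles (IL17RA_floxflox) and had been injected at 2 weeks of age with diethylnitrosamine (DEN, 25 mg/kg), a liver carcinogen, before 18 weeks of feeding. The dHEP mice also carried AlbCre, a Cre recombinase under the albumin promoter, and the FF mice did not carry it. The other libraries came from tumors and from mice on an alcohol diet, which the labels also name as a high-fat diet. Each library was whole tissue from 1 animal number, and the labels give neither sex nor time of collection. The albumin promoter is active in hepatocytes, so Kupffer cells, endothelium and stellate cells of a dHEP liver keep the receptor, and their RNA is part of each library. No group carried AlbCre without floxed Il17ra, so receptor loss and the presence of Cre cannot be told apart.

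The receptor A chain pairs with other chains, chiefly the C chain, and binds interleukin-17A and interleukin-17F. The adaptor Act1 (gene Traf3ip2) then couples it to NF-kappaB and to stabilisation of short-lived messenger RNAs. In liver the pathway is known for inducing neutrophil-attracting chemokines, lipocalin-2 and acute phase proteins. The comparison asks what losing this receptor in hepatocytes does to liver RNA when no alcohol is given. Fatty acid burning in the hepatocyte is governed largely by the nuclear receptor PPARalpha, and fat synthesis by the transcription factors SREBP-1c and ChREBP.

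Values were CPM, counts scaled to the same total in each library, and differences were taken as dHEP minus FF on the log2(CPM + 1) scale, which understates changes of genes near 1 CPM. Libraries held 9.572 to 16.88 M reads, estimated from the smallest step between values, and 11928 to 12298 genes reached 1 CPM. In limma, with Benjamini-Hochberg adjustment over 12651 tested genes, 0 genes passed an adjusted p of 0.05 (0%), and the smallest adjusted p was 0.61. At an unadjusted p below 0.05 there were 588 genes (4.65%), of which 336 lay higher in dHEP liver (2.66%) and 252 lower (1.99%). When libraries were rescaled by the median of ratios these numbers became 276 higher and 412 lower, so the higher share was 57.1% as deposited and 40.1% after rescaling. That share also turned on single libraries: it was 39.1% without FF-159 (283 higher and 441 lower), 59.8% without FF-157, 81.4% without FF-158 and 76.8% with sample quality weights (999 higher and 302 lower). All 3 dHEP libraries stood above all 3 FF libraries for 866 genes (6.85%) and below them for 587 genes (4.64%). Of 642 tested genes on the 44 gene lists used here, 0 passed the adjusted test, so the values given for named genes and lists describe these 6 livers.

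One dHEP library and 1 FF library stood apart from the other 4 before any comparison by genotype. FF-158 had the liver pattern opposite to that of the other 5 libraries for genes with a known sex bias. Hsd3b5, a steroid reductase of male mouse liver, read 154.5, 331 and 232 CPM in the dHEP libraries, against 114.5, 0.503 and 168.5 CPM in FF-157, FF-158 and FF-159. Mup7, a male-biased major urinary protein with near-identical copies, read 6527, 13910 and 12160 CPM in dHEP liver, against 10580, 99.3 and 11980 CPM in the same order of FF animals. Cyp2b9, a female-biased cytochrome P450, read 38.0, 4.18 and 9.35 CPM in dHEP liver, against 53.1, 786 and 22.3 CPM in FF liver. FF-158 alone was low for the first pair of genes and high for the last. The summed CPM of 17 male-biased genes was 1695 in FF-158 and 19340 or more in the other 5 libraries. The summed CPM of the female-biased list was 2653 in FF-158 and 305.4 or less elsewhere. The first principal component of the 6 libraries (45.9% of variance) placed dHEP-155 at -8.8, FF-158 at -45.1 and the other 4 between 12 and 15.9.

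FF-158 shared a second departure with dHEP-155, in genes of the circadian clock. Dbp, a clock output factor, read 1.56, 39.9 and 56.5 CPM in dHEP-155, dHEP-164 and dHEP-165, against 22.2, 1.22 and 26.9 CPM in FF-157, FF-158 and FF-159. Arntl, which encodes the clock activator BMAL1, read 38.4, 10.2 and 9.7 CPM in dHEP liver, against 15.5, 33.2 and 11.1 CPM in FF liver. Npas2, a partner of BMAL1, read 10.9, 0.593 and 0.753 CPM in dHEP liver, against 1.88, 9.69 and 1.42 CPM in FF liver. dHEP-155 and FF-158 were low for Dbp and high for both activators, 1 library of each genotype, and the groups overlapped for all 3 genes. Results within chow non-tumor liver are therefore given with all libraries and, where stated, without FF-158 or without FF-158 and dHEP-155. Values for the differences between diets and between tissues are from all libraries. Leaving out FF-158 left 696 genes higher in dHEP liver at an unadjusted p below 0.05 (5.53% of 12593) and 1.26% lower. Leaving out both left 390 higher (3.11% of 12541) and 110 lower (0.877%). The median difference of all tested genes was 0.03 with all libraries, 0.10 without FF-158 and 0.08 without both.

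**Figure D1:**
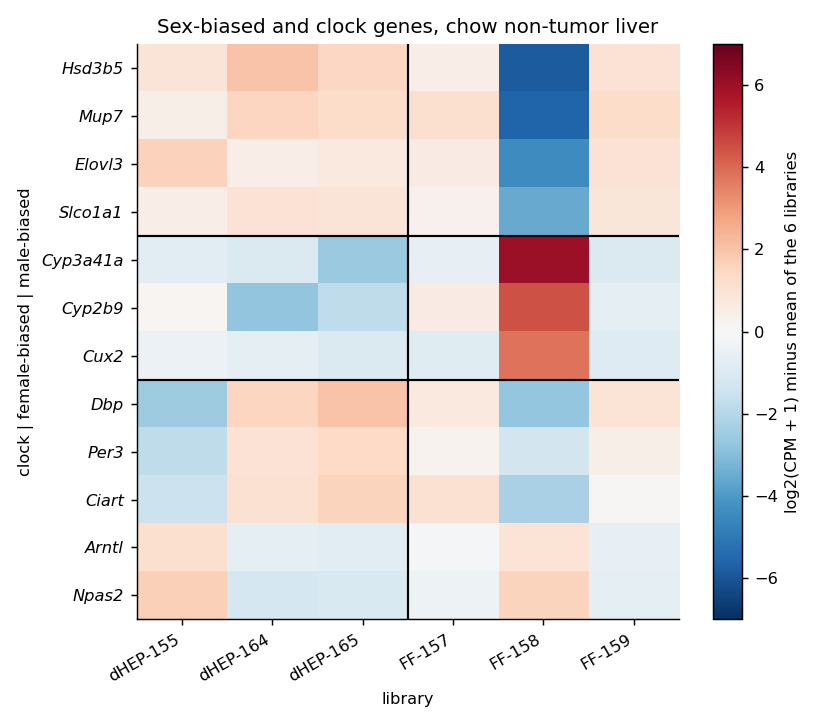
Each cell shows a gene's log2(CPM + 1) in 1 library minus its mean over the 6 chow non-tumor libraries, with 3 dHEP libraries on the left and 3 FF libraries on the right. FF-158 is low for male-biased and high for female-biased genes (Hsd3b5 0.503 CPM, Cyp2b9 786 CPM), and dHEP-155 and FF-158 share low Dbp (1.56 and 1.22 CPM) and high Arntl (38.4 and 33.2 CPM).

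Promoters of 4 genes that led the lower and higher groups described next are shown here, since Cyp4a32, Lgals4 and Acadl stood among the lower genes of smallest p and Thrsp led the lipogenic genes. The sequences are RefSeq promoters of GRCm38.p6, 250 bases before to 50 after the gene start, at chr4:115600688-115600987 (plus strand), chr7:28833544-28833843 (plus), chr1:66863260-66863559 (minus) and chr7:97417501-97417800 (minus), each written 5′ to 3′ along its gene. Capitals mark CCAAT or TATAAA on either strand, so the reverse complements appear as ATTGG and TTTATA.
Cyp4a32: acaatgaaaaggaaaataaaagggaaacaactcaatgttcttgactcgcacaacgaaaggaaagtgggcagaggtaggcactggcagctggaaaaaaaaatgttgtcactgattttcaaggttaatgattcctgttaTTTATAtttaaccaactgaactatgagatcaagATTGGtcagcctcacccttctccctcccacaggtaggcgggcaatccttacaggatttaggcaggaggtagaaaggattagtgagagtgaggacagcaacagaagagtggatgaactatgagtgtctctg
Lgals4: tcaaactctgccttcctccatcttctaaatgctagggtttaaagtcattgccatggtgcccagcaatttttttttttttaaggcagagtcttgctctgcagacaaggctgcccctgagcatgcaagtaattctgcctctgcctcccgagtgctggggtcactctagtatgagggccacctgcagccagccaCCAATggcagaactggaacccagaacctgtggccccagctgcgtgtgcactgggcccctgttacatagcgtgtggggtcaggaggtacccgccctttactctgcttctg
Acadl: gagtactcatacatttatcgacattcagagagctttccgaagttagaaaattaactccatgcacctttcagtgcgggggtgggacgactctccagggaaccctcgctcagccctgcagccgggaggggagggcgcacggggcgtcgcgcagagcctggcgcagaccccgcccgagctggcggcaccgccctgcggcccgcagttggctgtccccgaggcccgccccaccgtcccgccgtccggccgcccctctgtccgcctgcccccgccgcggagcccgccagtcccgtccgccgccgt
Thrsp: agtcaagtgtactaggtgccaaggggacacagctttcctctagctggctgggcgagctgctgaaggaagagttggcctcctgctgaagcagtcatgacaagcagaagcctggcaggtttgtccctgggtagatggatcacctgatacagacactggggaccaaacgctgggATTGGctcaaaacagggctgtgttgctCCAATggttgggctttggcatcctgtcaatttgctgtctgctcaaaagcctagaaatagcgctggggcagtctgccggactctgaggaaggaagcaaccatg
CCAAT lay 59 bases before the start of Lgals4 and 52 bases before that of Thrsp, and its reverse complement 80 bases before the start of Cyp4a32 and 79 before that of Thrsp. The reverse complement of TATAAA in Cyp4a32 began 113 bases before the start. These distances are from the RefSeq start of each promoter. The positions given below for Cyp4a32 and Lgals4 are those of GENCODE, which starts both genes further along the strand. Of all 32851 promoters of this length 37.4% held CCAAT and 13.6% held TATAAA on either strand. PPARalpha binds with its partner RXR to a direct repeat of AGGTCA with 1 base between the copies, written AGGTCANAGGTCA. Without mismatch this repeat was in 0.04% of all promoters (13) and in 0 of 11 promoters matched to the PPARalpha list. Those 11 belong to 10 of the list's 17 genes, and Cyp4a10, Cyp4a31, Cyp4a14 and Angptl4 had no promoter entry. For so rare a motif 0 of 11 is near the background, so it does not show whether these genes have a PPARalpha site. The E-box CACGTG was in 7.15% of all promoters, in 2 of those 11 (Fgf21 and Plin2) and in 2 of 19 lipogenic promoters (Elovl5 and Mlxipl). The D-box, to which DBP binds, was in 1.06% of all promoters and in 0 of these lists' promoters. No searched motif overlapped another in the 4 sequences.

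The targeted gene was lower in every dHEP library. Il17ra, on chromosome 6 (GRCm38, 120463247 to 120487559, plus strand), read 8.34, 10.4 and 9.98 CPM in dHEP liver, against 23.1, 20.2 and 14.7 CPM in FF liver. The groups did not overlap, and the dHEP mean of 9.59 ± 1.1 CPM was 49.6% of the FF mean of 19.3 ± 4.27 CPM (SD, n = 3 each). The log2 difference was -0.92 ± 0.22 (SE), with an adjusted p of 0.72 in limma and an exact permutation p of 0.1, two-sided, the smallest that 3 against 3 allows. It was -0.88 without FF-158 and -0.79 without both libraries. In whole tissue, fewer cells of a type and less RNA per cell cannot be told apart, and the gene-level value does not separate the deleted exons from the rest of the transcript.

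The other receptor chains and the adaptor overlapped between genotypes. Il17rc, the usual partner chain, read 17.1, 15.3 and 17.0 CPM in dHEP liver, against 14.6, 21.2 and 15.9 CPM in FF liver, and its log2 difference of -0.05 ± 0.15 became 0.10 without FF-158. Il17rb, the receptor chain for interleukin-25, averaged 6.54 ± 0.685 CPM in dHEP liver and 6.82 ± 1.78 CPM in FF liver, and its difference also changed sign without FF-158, at -0.03 with it and 0.15 without it. Il17rd, an accessory chain, averaged 0.799 ± 0.261 CPM in dHEP liver and 1.34 ± 0.559 CPM in FF liver. Traf3ip2 averaged 3.0 ± 0.395 CPM in dHEP liver and 3.52 ± 0.916 CPM in FF liver. Il17re stayed under 1 CPM in all 6 libraries and was not tested. Of the 5 tested genes of this list Il17ra was the one whose groups did not overlap.

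**Figure D2:**
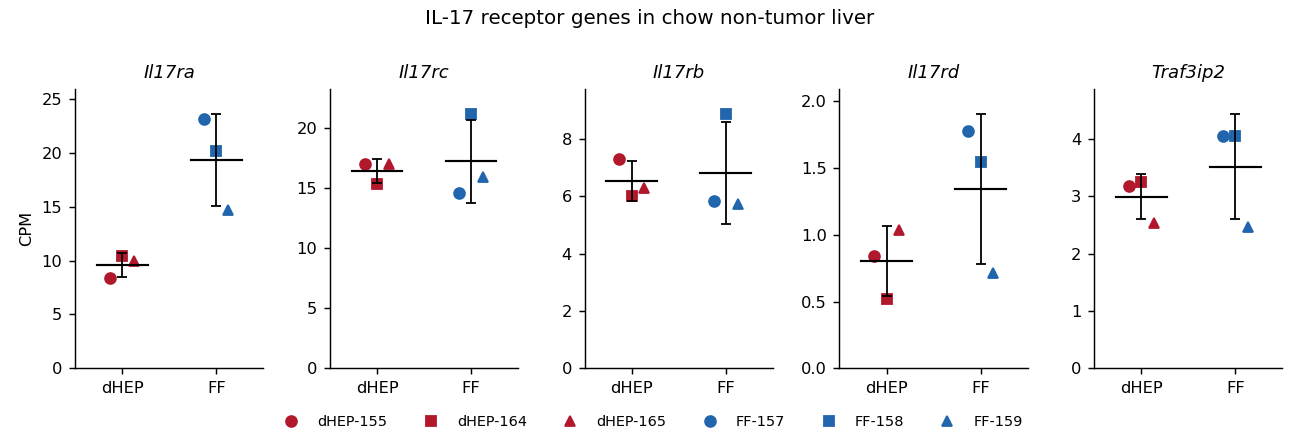
CPM of 5 IL-17 receptor genes in the 3 dHEP livers (red, left) and 3 FF livers (blue, right), 1 point per library, with bars for the mean and SD. Il17ra sits at 8.34 to 10.4 CPM in dHEP liver and 14.7 to 23.1 CPM in FF liver, and the other 4 genes overlap.

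The list of genes that interleukin-17 is known to induce held 20 genes, of which 19 were in the table, 13 could be tested and 2 (Ccl20 and Csf3) were at 0 in all 6 libraries. Of the 13 tested genes 0 had an unadjusted p below 0.05 and 0 had non-overlapping groups. Of all genes 2.66% lay higher and 1.99% lower by that p, and 6.85% and 4.64% had separate groups, so a count of 0 in 13 is near the background. The median difference was -0.10, and it ran from -0.21 to 0.18 when 1 library was left out. Lcn2, the iron-siderophore binder lipocalin-2, read 32.7, 9.999 and 7.06 CPM in dHEP liver, against 35.1, 47.2 and 12.1 CPM in FF liver, a log2 difference of -0.98 ± 0.64 with an adjusted p of 0.99 in limma. Leaving out 1 library gave -1.59 (without dHEP-155) to -0.56 (without dHEP-165). dHEP-155 lay within the FF range. Cxcl1, a neutrophil chemokine, read 3.47, 8.96 and 11.3 CPM in dHEP liver, against 19.1, 4.89 and 25.5 CPM in FF liver, again with overlap. Acute phase proteins, made by hepatocytes on cytokine signals, had a median of -0.12 over 20 genes, with 0 at an unadjusted p below 0.05 in either direction. Of these, 3 (Fga, Fgg and Lbp) lay lower in every dHEP library, beside 4.64% of all genes, and 18 of 20 had a negative difference. The median was -0.25 to -0.01 when 1 library was left out.

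The group with the lowest median outside the sex-biased lists was the list of PPARalpha targets and microsomal omega-oxidation enzymes. Over its 17 tested genes the median log2 difference was -0.70, beside 0.03 for all tested genes. Of the 17, 8 lay lower at an unadjusted p below 0.05, beside 1.99% of all genes, and 0 higher. In 8 every dHEP library was below every FF library, beside 4.64% of all genes. Without FF-158 the median was -0.46 with 5 lower, beside 1.26% of all genes. Without both libraries it was -0.58 with 5 lower, beside 0.877%.

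Within this list the Cyp4a enzymes, which hydroxylate the tail of fatty acids, gave the widest gaps. Cyp4a32 (chromosome 4, 115600969 to 115621602, plus strand) read 20.8, 14.5 and 20.1 CPM in dHEP liver, against 40.6, 30.9 and 53.9 CPM in FF liver. The dHEP mean was 44.2% of the FF mean, and the log2 difference was -1.12 ± 0.21 with an adjusted p of 0.72. Without FF-158 it was -1.31 ± 0.21, with an adjusted p of 0.41, the smallest in that fit. With sample quality weights it was the 1 gene called, at an adjusted p of 0.044. Cyp4a31 read 2.96, 1.83 and 2.54 CPM in dHEP liver, against 9.67, 9.11 and 9.34 CPM in FF liver, a log2 difference of -1.60 ± 0.36. Cyp4a10 read 398, 140 and 218 CPM in dHEP liver, against 530, 1329 and 553 CPM in FF liver. Its log2 difference was -1.66 ± 0.49, and -1.23 without FF-158, the highest library. All 3 genes had separate groups. Cyp4a14 read 366, 67.8 and 124 CPM in dHEP liver, against 410, 2542 and 360 CPM in FF liver, so dHEP-155 reached into the FF range. These genes neighbour each other and are close in sequence, so reads may have been split among them, and their values are uncertain one by one. A further pair of family members ran the other way, Cyp4a12a at 1.07 and Cyp4a12b at 1.13, both male-biased in mouse liver, and without FF-158 they were at -0.25 and -0.10.

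Angptl4, a secreted inhibitor of lipoprotein lipase, read 89.2, 89.1 and 144 CPM in dHEP liver, against 189, 190 and 268 CPM in FF liver. The groups did not overlap, and the log2 difference was -1.01 ± 0.23, with -1.1 without FF-158. Acot1, which frees fatty acids from coenzyme A, averaged 21.5 ± 2.15 CPM in dHEP liver and 47.0 ± 22.2 CPM in FF liver. Plin2, the main lipid droplet coat of hepatocytes, averaged 370 ± 90.7 CPM in dHEP liver and 598 ± 97.9 CPM in FF liver. Creb3l3, a liver transcription factor of lipid metabolism and fasting, averaged 228 ± 20.2 CPM in dHEP liver and 279 ± 25.3 CPM in FF liver. None of these 3 overlapped between genotypes. Ppara itself had a difference of -0.30 with overlap.

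Mitochondrial beta-oxidation genes leaned the same way by less. The median over 18 genes was -0.13, and 15 of 18 were negative. At an unadjusted p below 0.05, 4 lay lower, beside 1.99% of all genes, and 0 higher, and 6 lay below FF liver in every dHEP library, beside 4.64%. Without FF-158 the median was -0.08 with 3 lower at that p, beside 1.26% of all genes. Without both libraries it was -0.12 with 1 lower, beside 0.877%. Acadl, the long-chain acyl-CoA dehydrogenase, read 92.0, 87.6 and 87.9 CPM in dHEP liver, against 136, 143 and 115 CPM in FF liver. Its dHEP mean was 67.9% of the FF mean, with a log2 difference of -0.55 ± 0.13 and an adjusted p of 0.72. Acadm, the medium-chain enzyme, averaged 284 ± 12.5 CPM in dHEP liver and 347 ± 10.5 CPM in FF liver. Eci2, an enoyl-CoA isomerase, averaged 176 ± 11.1 CPM in dHEP liver and 223 ± 13.4 CPM in FF liver. Cpt2, the inner-membrane carnitine transferase, averaged 134 ± 4.63 CPM in dHEP liver and 160 ± 13.5 CPM in FF liver. The groups of all 4 were separate. Leaving out FF-158 gave -0.48, -0.28, -0.39 and -0.24 for Acadl, Acadm, Eci2 and Cpt2.

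Peroxisomal oxidation was mixed over 15 genes. Crot, the carnitine octanoyltransferase, averaged 708 ± 121 CPM in dHEP liver and 988 ± 215 CPM in FF liver with overlap. Scp2, a peroxisomal thiolase and sterol carrier, read higher in every dHEP library, at 3927 ± 122 CPM in dHEP liver and 2952 ± 796 CPM in FF liver. Without FF-158 the log2 difference of Scp2 was 0.21, against 0.45 with it.

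Genes of fat synthesis had a positive median. Over 18 tested genes of the lipogenesis list the median was 0.25, and 15 were positive. It was 0.15 to 0.56 when 1 library was left out, with 0.44 without FF-158. At an unadjusted p below 0.05, 2 lay higher, beside 2.66% of all genes, and 0 lower, and 3 had every dHEP library above every FF library, beside 6.85%. Thrsp (Spot 14), an inducer of lipogenic enzymes, read 215, 195 and 378 CPM in dHEP liver, against 103, 36.0 and 101 CPM in FF liver. The dHEP mean was 328% of the FF mean, with a log2 difference of 1.78 ± 0.46, an adjusted p of 0.87, and 1.29 without FF-158, the lowest library. Srebf1, which encodes SREBP-1, read 306, 290 and 242 CPM in dHEP liver, against 141, 210 and 96.8 CPM in FF liver. Its log2 difference was 0.96 ± 0.40, with an adjusted p of 0.99, and 1.24 without FF-158. Elovl6, a fatty acid elongase, was the third with separate groups, at 116 ± 17.8 CPM in dHEP liver and 82.1 ± 16.3 CPM in FF liver. Fasn, which encodes fatty acid synthase, had a difference of 0.51, and Scd1, the stearoyl-CoA desaturase, one of 0.70, both with overlap. Leaving out 1 library gave 0.27 to 0.83 for Fasn and 0.24 to 1.12 for Scd1. Mid1ip1, a partner of Spot 14 in activating acetyl-CoA carboxylase, stood outside the list and was named for its small p. It read 32.4, 34.9 and 43.3 CPM in dHEP liver, against 14.4, 23.9 and 18.96 CPM in FF liver. The groups were separate, and the log2 difference was 0.93 ± 0.21, and 1.1 without FF-158.

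Of 24 genes of cholesterol synthesis 0 had separate groups, beside 6.85% of all genes above and 4.64% below, and 0 had an unadjusted p below 0.05, beside 2.66% higher and 1.99% lower. Their median was 0.11, with 0.01 to 0.46 when 1 library was left out and -0.08 without dHEP-155 and FF-158. The difference from the fat synthesis list was not tested. Srebf2, which drives that pathway, averaged 30.8 ± 9.38 CPM in dHEP liver and 39.2 ± 7.34 CPM in FF liver, with overlap. Dhcr7, the last enzyme of the pathway, averaged 51.2 ± 19.3 CPM in dHEP liver and 50.7 ± 12.4 CPM in FF liver. Casp2, a caspase tied to SREBP activation, averaged 7.09 ± 0.954 CPM in dHEP liver and 6.58 ± 1.65 CPM in FF liver.

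Lipid droplet genes went both ways. Plin5, the droplet coat that docks droplets to mitochondria, read 51.9, 51.5 and 46.7 CPM in dHEP liver, against 83.4, 66.7 and 68.2 CPM in FF liver. Fitm1, a membrane protein of droplet formation, read 60.8, 39.5 and 55.4 CPM in dHEP liver, against 34.3, 20.7 and 28.8 CPM in FF liver. The groups were separate for both, with log2 differences of -0.53 ± 0.18 for Plin5 and 0.88 ± 0.25 for Fitm1. Pnpla2, adipose triglyceride lipase, averaged 37.0 ± 7.58 CPM in dHEP liver and 51.9 ± 12.1 CPM in FF liver with overlap. Cidec, which fuses droplets, averaged 10.04 ± 1.96 CPM in dHEP liver and 4.82 ± 1.60 CPM in FF liver with separate groups, and a log2 difference of 0.95 ± 0.45. Across the 15 tested genes the median was -0.02.

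**Figure D3:**
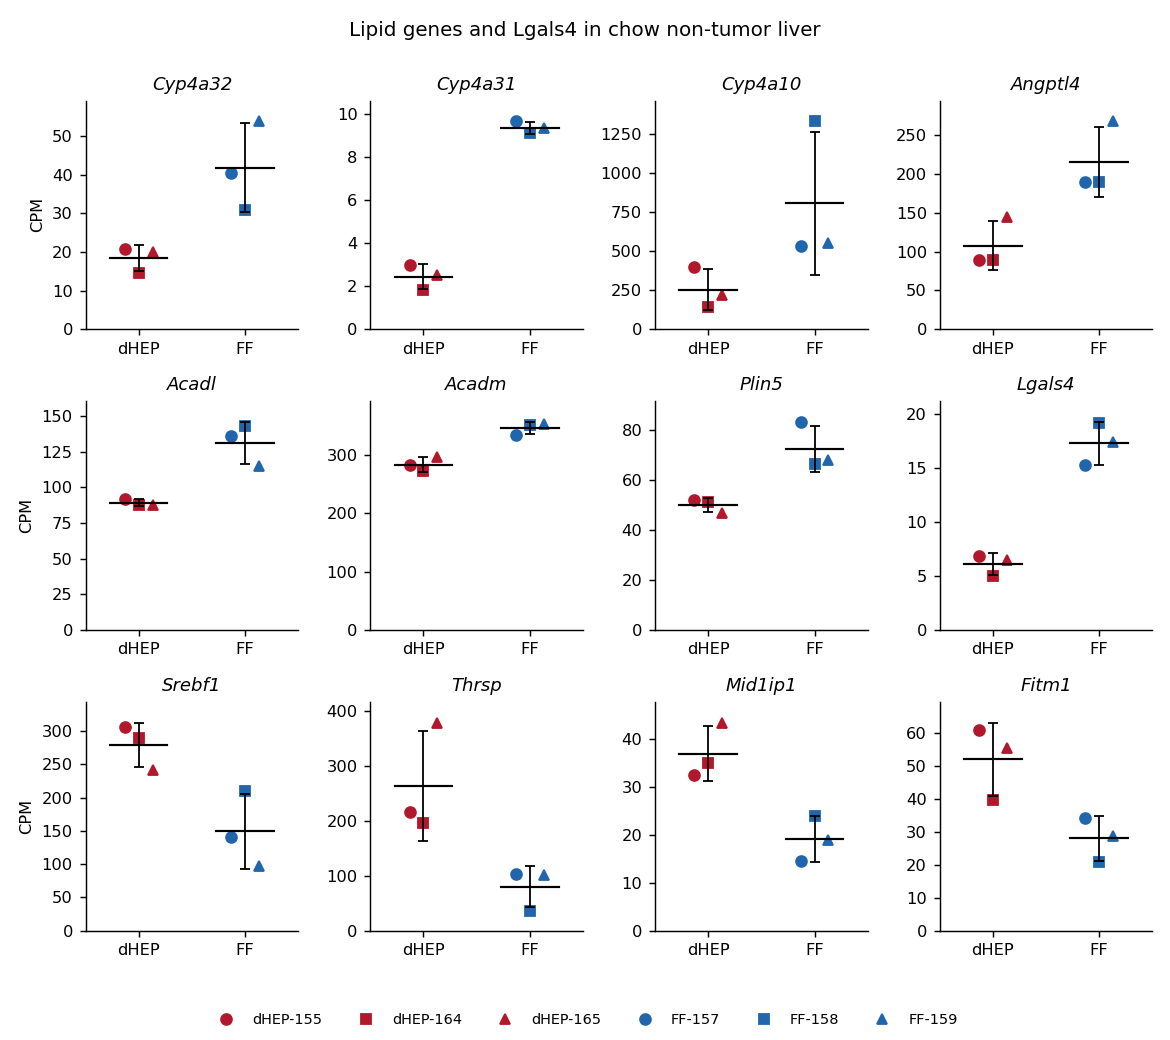
CPM per library of 12 genes, 11 of lipid metabolism and Lgals4, with dHEP livers in red on the left and FF livers in blue on the right; lines are means and bars SD (n = 3). The groups are separate in each panel, lower in dHEP liver in the upper 2 rows (Lgals4 4.96 to 6.84 CPM against 15.2 to 19.2 CPM) and higher in the bottom row (Mid1ip1 32.4 to 43.3 CPM against 14.4 to 23.9 CPM).

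Other genes of small p were of mixed function. Lgals4, the epithelial lectin galectin-4 (chromosome 7, 28833854 to 28841708, plus strand), had the smallest p of all genes. It read 6.84, 4.96 and 6.50 CPM in dHEP liver, against 15.2, 19.2 and 17.4 CPM in FF liver, a dHEP mean of 35.3% of the FF mean. The groups were far apart, and the log2 difference was -1.37 ± 0.24 with an adjusted p of 0.61. Slc1a2, the glutamate transporter of pericentral hepatocytes, read 288, 390 and 344 CPM in dHEP liver, against 558, 488 and 504 CPM in FF liver. Sun2, a linker of the nuclear envelope, read 49.5, 48.9 and 53.6 CPM in dHEP liver, against 110, 75.6 and 92.0 CPM in FF liver. Both had separate groups, with log2 differences of -0.61 ± 0.13 for Slc1a2 and -0.84 ± 0.18 for Sun2. Tacc2, a centrosomal protein, differed by -1.02, and Rab30, a small GTPase of the Golgi, by -1.31. Egr1, an immediate early transcription factor, averaged 4.45 ± 0.872 CPM in dHEP liver and 19.3 ± 8.02 CPM in FF liver, with a difference of -1.82 ± 0.54. The scavenging chemokine receptor Ackr4 differed by -0.76, the mitochondrial carrier Slc25a34 by -0.96 and Mmd by -0.40.

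Among genes higher in every dHEP library, Tpmt, which methylates thiopurines, read 49.2, 42.3 and 54.9 CPM in dHEP liver, against 26.9, 18.4 and 26.5 CPM in FF liver, a log2 difference of 1.01 ± 0.23. Osmr, a receptor chain for oncostatin M, read 12.1, 13.8 and 12.3 CPM in dHEP liver, against 7.63, 7.70 and 7.23 CPM in FF liver, a log2 difference of 0.69 ± 0.18. Libraries of each genotype agreed closely for Osmr. Fabp5, the epidermal fatty acid binder, averaged 23.9 ± 2.67 CPM in dHEP liver and 8.25 ± 2.44 CPM in FF liver. Cfd, the complement factor adipsin, averaged 8.47 ± 2.24 CPM in dHEP liver and 1.93 ± 2.22 CPM in FF liver. Ppat, the first enzyme of purine synthesis, differed by 0.63, the Hes family member Hes6 by 0.84 and the kinase gene Aatk by 0.94. Fam174b differed by 0.66, Tmub1 by 0.48 and Gins4, of the replication helicase, by 0.36. Among genes with separate groups the largest positive differences were those of urinary protein genes, which are near-identical copies whose reads may be split, such as Mup15 at 4.51 and Mup2 at 2.49. Without FF-158 these were 1.41 and 0.79.

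In xenobiotic metabolism 21 of 24 genes of the cytochrome P450 list were negative, with a median of -0.22. At an unadjusted p below 0.05, 3 lay lower, beside 1.99% of all genes, and 0 higher with all libraries. Without FF-158 the count was 0 in either direction, beside 5.53% of all genes higher and 1.26% lower. Every dHEP library was below every FF library for 4 of the 24 genes, beside 4.64% of all genes. Without FF-158 this held for 11 of the 24, beside 6.31%, and the median was -0.17. Nr1i3, the nuclear receptor CAR, read 147, 133 and 193 CPM in dHEP liver, against 216, 340 and 220 CPM in FF liver. Cyp2c37, a P450 that acts on arachidonate, read 509, 460 and 502 CPM in dHEP liver, against 607, 1501 and 603 CPM in FF liver. Both had separate groups and their highest value in FF-158; without it the log2 differences were -0.48 for Nr1i3 and -0.30 for Cyp2c37, against -0.70 and -0.74 with it. In bile acid synthesis, Cyp7a1, the rate-setting enzyme, averaged 157.1 ± 63.2 CPM in dHEP liver and 66.5 ± 42.6 CPM in FF liver with overlap. Its log2 difference was 1.32 ± 0.52, and 1.80 without FF-158. Cyp27a1, which starts the alternative route, differed by 0.19 and Abcb4, the phospholipid exporter into bile, by -0.23. The 22 genes of the bile acid list had a median of -0.05. Of these, 1 lay above and 2 below FF liver in every dHEP library, beside 6.85% and 4.64% of all genes. In iron handling Tfrc, the transferrin receptor, averaged 49.9 ± 15.1 CPM in dHEP liver and 28.3 ± 5.08 CPM in FF liver, and Id1, a target of BMP signals, 2.32 ± 0.699 CPM in dHEP liver and 4.14 ± 0.372 CPM in FF liver. Both had separate groups. Over the 18 tested genes of the iron list the median was -0.15. Of these, 1 lay above and 2 below in every dHEP library, beside the same 6.85% and 4.64%.

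The unfolded protein response list leaned up in dHEP liver, with 19 of 21 genes positive and a median of 0.27, but 0 had an unadjusted p below 0.05. Every dHEP library stood above every FF library for 5 of the 21, beside 6.85% of all genes, and below for 0. Hspa5, the main chaperone of the endoplasmic reticulum, averaged 1051 ± 304 CPM in dHEP liver and 677 ± 89.0 CPM in FF liver, and Manf, a secreted stress factor, 96.2 ± 36.8 CPM in dHEP liver and 56.7 ± 11.8 CPM in FF liver. Both had separate groups. All 27 respiratory chain genes were positive by small amounts, with a median of 0.11 (0.06 to 0.15 when 1 library was left out), and 7 had separate groups, beside 6.85% of all genes above. Interferon genes had a median of -0.18, and 0.15 without FF-158. Tumor markers had a median of -0.39, and 0.01 without FF-158. Cell cycle genes had a median of 0.01. Lists not described here had medians from -0.21 (T and NK cell markers) to 0.27 (monocyte and recruited macrophage markers).

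Markers of other cells varied with the same libraries. Kupffer cell markers had a median of 0.42 over 14 genes, with 4 higher at an unadjusted p below 0.05, beside 2.66% of all genes. With separate groups there was 1, close to the 6.85% of all genes. The median was 0.19 to 0.73 when 1 library was left out. Their summed level was 750.1 to 980.3 CPM in dHEP liver and 505.8 to 973.4 CPM in FF liver, where FF-158 held the upper end and FF-157 and FF-159 read 505.8 and 605.5 CPM. Adgre1 (F4/80) read 45.4, 37.5 and 29.2 CPM in dHEP liver, against 15.9, 35.4 and 20.1 CPM in FF liver, with FF-158 inside the dHEP range. Without FF-158, 12 of the 14 lay higher at an unadjusted p below 0.05, beside 5.53% of all genes. The dHEP libraries then stood above both remaining FF libraries for 13 of 14, beside 25.7% of all genes (6.31% stood below), and the median was 0.73. Without both libraries 8 lay higher, beside 3.11% of all genes, and the median was 0.58. The smallest adjusted p over all genes without FF-158 was 0.41 in limma. Cd163, a scavenger receptor of macrophages, was separate with all libraries, at 46.9, 57.5 and 42.5 CPM in dHEP liver, against 26.1, 25.0 and 29.4 CPM in FF liver.

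Sinusoidal and vascular endothelium had a median of 0.18, and 0.35 without FF-158; its sum was 709.2 to 795.1 CPM in dHEP liver and 489 to 844.3 CPM in FF liver. Oit3 and Lyve1, 2 sinusoidal markers, were separate, at 43.1 ± 0.753 and 15.3 ± 1.54 CPM in dHEP liver, against 30.4 ± 5.88 and 9.19 ± 1.53 CPM in FF liver. Of the 18 endothelial genes 3 stood above FF liver in every dHEP library, beside 6.85% of all genes, and 0 below. Stellate cell and fibroblast markers summed to 701.5 to 841.6 CPM in dHEP liver and 588.9 to 758.6 CPM in FF liver, with 14 of 17 positive. Defining markers of T cells (Cd3e), neutrophils (Ly6g) and fat cells (Adipoq) did not reach the level for testing, and Lep and 7 of 11 pancreatic genes were at 0 in all 6 libraries. Of 18 tested hepatocyte markers 12 were negative, with a median of -0.06. Alb, the gene whose promoter drives the Cre, read 39630, 32400 and 35640 CPM in dHEP liver, against 59650, 64140 and 55820 CPM in FF liver. Its groups were separate, with a log2 difference of -0.74 ± 0.37 and an adjusted p of 0.99. Apob (-0.18) and Ahsg (-0.26) also had separate groups. Of the 18 hepatocyte markers 3 thus lay below FF liver in every dHEP library, beside 4.64% of all genes, and 0 above, beside 6.85%. Their summed level, which includes Alb, was 112100 to 117700 CPM in dHEP liver and 140200 to 149100 CPM in FF liver. The part that cell composition, clock or sex-biased genes had in the lipid differences was not tested.

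**Figure D4:**
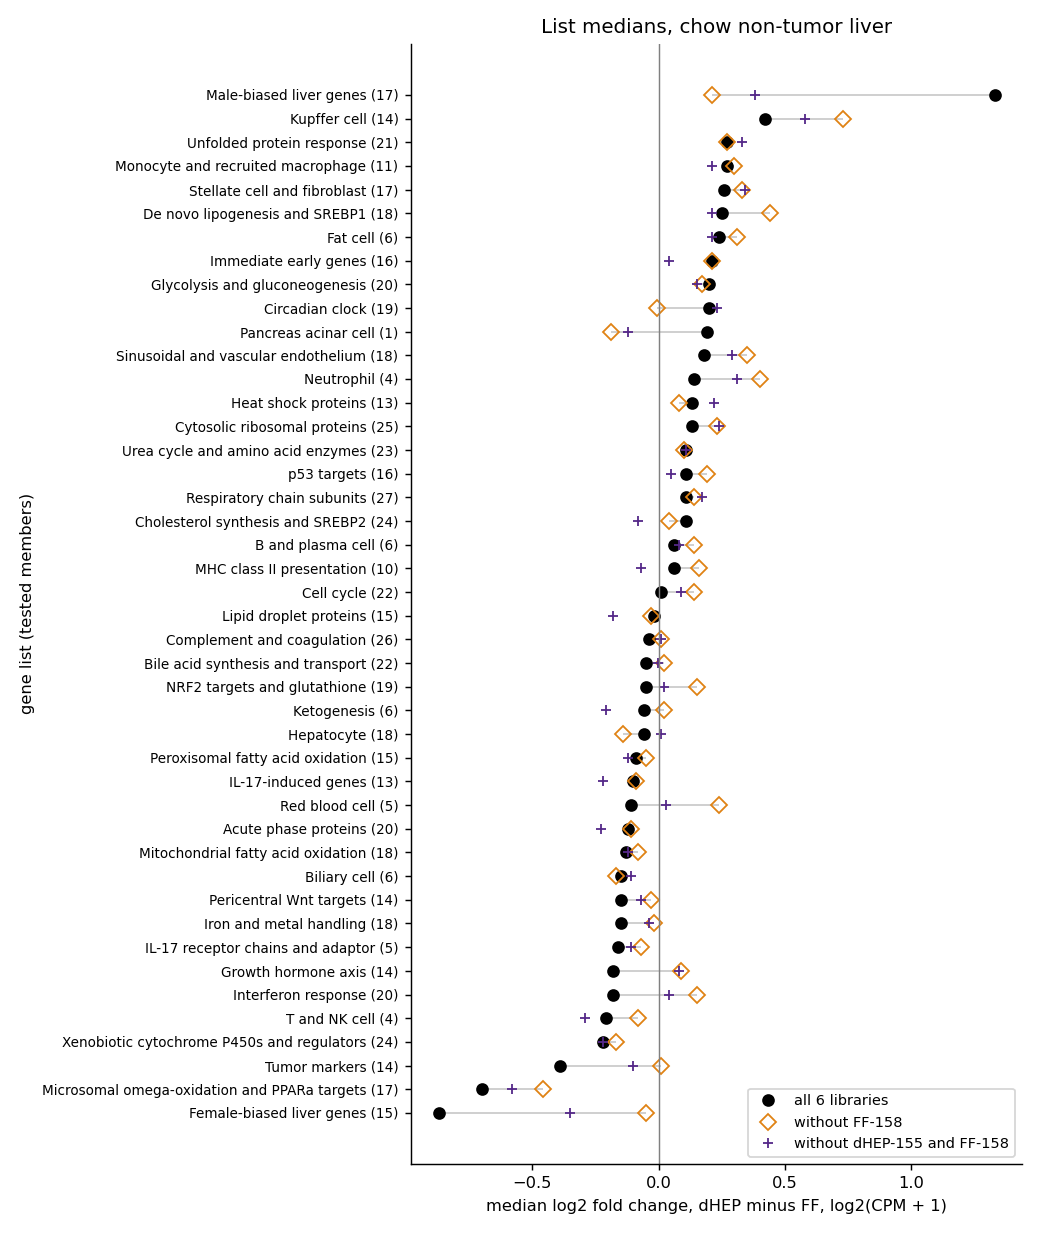
Median log2 difference, dHEP minus FF, of the tested members of 44 gene lists (number of members in brackets) with all 6 libraries, without FF-158 and without FF-158 and dHEP-155. The sex-biased lists shrink toward 0 without FF-158 (1.33 and 0.21 for male-biased genes), the PPARalpha list stays below 0 in all 3 settings (-0.70, -0.46 and -0.58), and Kupffer markers move up (0.42, 0.73 and 0.58).

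The same genotype contrast in non-tumor liver of mice on alcohol (n = 4 each) was set beside that on chow. No gene differed between diets at an adjusted p below 0.05 (0 of 12651, 0%), and the smallest adjusted p of the difference was 0.21. At an unadjusted p below 0.05 the chow effect was the more positive for 4.99% of genes and the more negative for 1.89%. Il17ra was lower in dHEP liver by a like amount on both diets, at -0.92 ± 0.22 on chow and -1.0 ± 0.19 on alcohol. For the PPARalpha list the chow effect was the more negative at an unadjusted p below 0.05 in 8 of 17 genes, beside 1.89% of all genes, and the median genotype difference was -0.70 on chow and 0.17 on alcohol. The chow median was -0.46 without FF-158 and -0.58 without FF-158 and dHEP-155. The count of 8 is given with all libraries only. Cyp4a32 was -1.12 on chow and 0.51 on alcohol, Angptl4 -1.01 and 0.52, Lgals4 -1.37 and 0.40, and Slc1a2 -0.61 and 0.43. These 4 genes thus lay lower in dHEP liver on chow and higher on alcohol. They were named for a small p in the same chow libraries, and the list was picked out for its chow median. That choice favours a large difference between diets, so the difference is not an independent check. The adjusted p for the difference between diets was 0.21 for Cyp4a32, Lgals4 and Slc1a2 and 0.36 for Angptl4. Osmr went the opposite way, 0.69 on chow and -0.62 on alcohol, also at 0.21. Thrsp was 1.78 on chow and 0.00 on alcohol, and Srebf1 0.96 and -0.12. The lipogenic pair stood higher in dHEP liver on chow and near 0 on alcohol. Lcn2 was -0.98 on chow, with -1.59 to -0.56 when 1 library was left out, and -2.09 on alcohol. The PPARalpha list was not alone in this. In limma the chow effect was the more positive at an unadjusted p below 0.05 in 9 of 21 unfolded protein response genes, beside 4.99% of all genes. Their medians were 0.27 on chow and -0.41 on alcohol. It was the more negative in 7 of 24 genes of the cytochrome P450 list, beside 1.89%, with medians of -0.22 and 0.28. Diet was tied to separate sets of animals, so diet and cohort cannot be told apart. The labels also name the alcohol diet as a high-fat diet, so alcohol and dietary fat cannot be told apart either.

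**Figure D5:**
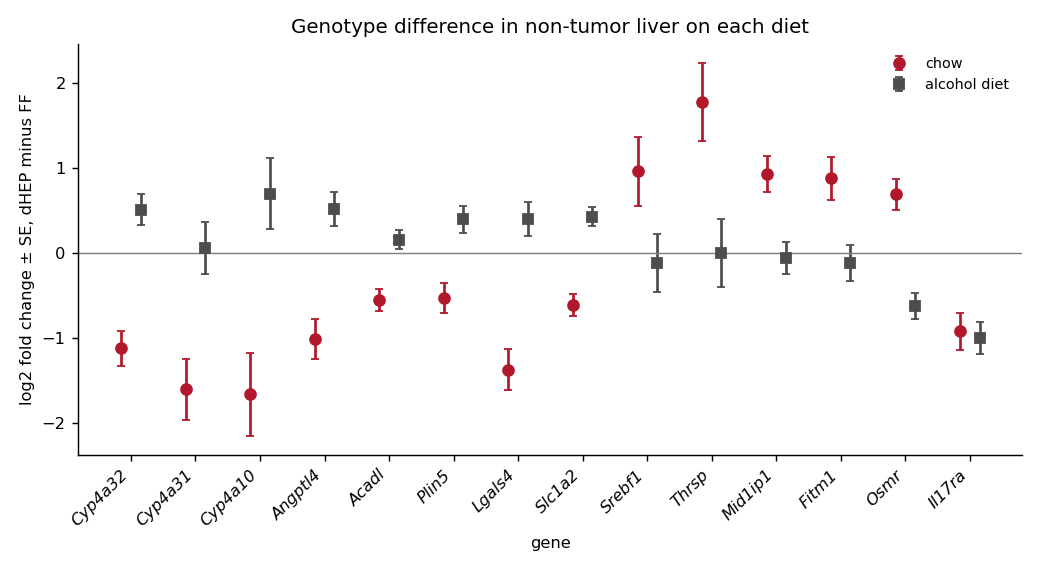
Log2 difference between dHEP and FF non-tumor liver on chow (red circles, left of each pair, n = 3 each) and on the alcohol diet (grey squares, n = 4 each), with standard errors. Il17ra sits near -1 on both diets, while the PPARalpha targets and Lgals4 are below 0 on chow and above 0 on alcohol and Thrsp is at 1.78 on chow and 0.00 on alcohol.

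In tumors of chow-fed mice (n = 3 each, the dHEP tumors from the same 3 animals) the genotype differences could be set beside those of non-tumor liver. Of 13167 genes 0 differed between the tissues at an adjusted p below 0.05 (0%), and the smallest adjusted p was 1. At an unadjusted p below 0.05 the non-tumor effect was the more positive for 2.39% and the more negative for 0.646%. Il17ra was -0.92 in non-tumor liver and -0.53 in tumors. Cyp4a10 was -1.66 and -2.19, Angptl4 -1.01 and -0.75, Thrsp 1.78 and 1.52, and Acadl -0.55 and -0.05. All of these had the same sign in both tissues, and Acadl was near 0 in tumors. Over the whole PPARalpha list the median was -0.70 in non-tumor liver and -0.22 in tumors. Kupffer cell markers had a median of 0.42 in non-tumor liver and -0.89 in tumors. Of the 14, 8 had a more positive effect in non-tumor liver at an unadjusted p below 0.05, beside 2.39% of all genes.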

How the data were processed

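Bulk RNA of 28 liver libraries was deposited as CPM for 22187 genes, made by the authors, whose processing notes name GRCm38, RSEM 1.3.0 and STAR 2.5.1a; each column sums to 1000000. The labels name both polyA RNA and a stranded total RNA kit. GENCODE matched 21653 gene IDs, and the 534 others held at most 0.166% of a library. In the 6 libraries 86.2% to 87.05% of low values lay within 0.1 of a whole read, too few for counts, so no count model was used. limma 3.58.1 (R 4.3.3, moderated variances with a mean-variance trend) took log2(CPM + 1) as input, kept genes that reached 1 CPM in 3 libraries or more, and was fitted over the 14 non-tumor libraries (12 chow libraries for the tissue difference), with Benjamini-Hochberg adjustment over all tested genes. The fit was tested on simulated data. Groups came from the sample labels. Nothing states more than the animal numbers about independence, so p-values measure the spread between these samples.

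The comparison, the 44 gene lists, the named genes and the alternatives were chosen with earlier results of these data known. Named were receptor genes, Lcn2, Srebf1, Srebf2, Dhcr7 and Casp2; in each direction the 12 genes of smallest p and 8 of largest fold with separate groups and a mean of 5 CPM or more; and up to 4 members of smallest p per list. Some are not reported here, and Alb, Elovl6, Cidec, Hspa5, Manf and the further list members were chosen after their values were seen. Same-numbered dHEP chow tumor and non-tumor samples come from the same animals, and their deviations correlated at 0.191, 0.074 and 0.145. On chow, FF samples share no number between tissues, and the genotypes share none either. Promoters were RefSeq sequences, GRCm38.p6.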

Additional observations from a re-analysis of the deposited data

How the results depend on the processing

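With 0.5 in place of 1 as pseudocount, with all genes or those averaging 5 CPM or more, with libraries rescaled, with quality weights, in a fit of the 6 libraries alone, and with 1 library or dHEP-155 and FF-158 left out, Il17ra stayed lower in dHEP liver and 0 genes were called, except as follows. Sample quality weights called 1 gene, Cyp4a32 (limma, adjusted p = 0.044), and put 1301 genes at an unadjusted p below 0.05, beside 588. Leaving out 1 library at a time called 0 to 1 genes, the 1 being Gm10132 without dHEP-165 (adjusted p = 0.018). The tests between diets and between tissues kept 0 called genes in every alternative run, and with the animal as a replicate block for the paired dHEP tumor and non-tumor samples 0 genes were called; the chow genotypes share no number, so their own comparison has no paired fit. Median-of-ratios scaling of the separate groups was chosen after seeing the data and kept their count within 1.5 times.

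Of 1073 refits of 83 named genes 24 changed sign. Il17rc was 0.03 with quality weights, 0.08 without dHEP-155 and FF-158, and -0.15 to 0.10 leaving out 1 library. Il17rb was 0.07 in each of those 2 settings and -0.13 to 0.15 leaving out 1 library. Cyp4a12a was -0.10 without both libraries and -0.25 to 1.74 leaving out 1, and Cyp4a12b -0.10 to 1.78. Leaving out 1 library gave -0.27 to 0.30 for Dhcr7, -0.07 to 0.25 for Casp2, -0.12 to 3.33 for Mup7, -0.48 to 2.10 for Dbp, -0.79 to 0.25 for Arntl and -1.33 to 0.28 for Npas2. Of 570 refits of list medians 12 moved by more than the spread between libraries; the cause was not tested. With 3 livers a genotype, no exact p can fall below 0.1.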
